A study of Mus musculus with 18 samples.

Results

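Genes of matrix proteolysis were followed in bone marrow-derived macrophages (BMDMs), 7 matrix metalloproteinases (Mmp2, Mmp8, Mmp9, Mmp12, Mmp13, Mmp14 and Mmp19) and 3 tissue inhibitors of metalloproteinases (Timp1, Timp2 and Timp3). They were chosen by gene symbol, without a threshold on their values, and make up 10 of the 25926 genes in the table. The BMDMs came from C57BL/6J mice, were differentiated for 7 days with M-CSF at 50 ng/mL, and were sequenced in 3 groups of 6 samples. In all groups they sat on a Transwell membrane (0.4 μm pores) above tubular epithelial cells (TECs) cultured from the kidneys of wild-type mice. The NC group received PBS above untreated TECs. The COM group also received PBS, above TECs exposed to calcium oxalate monohydrate (COM) crystals at 100 μg/mL for 24 h. The COM+Met group was kept above COM-treated TECs and received Met at 5.0 mM for 24 h, and the sample labels do not spell out what Met stands for. There was no group with Met and no COM. Neither the labels nor the methods say whether the 6 samples of a group were separate cultures or mice, and the spread that the p-values measure may thus be technical.

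Matrix metalloproteinases are zinc-dependent enzymes that cut collagens, elastin, gelatin and other matrix proteins, and that also release or inactivate cytokines and growth factors. Most are made as inactive proenzymes and are opened by other proteases. TIMPs bind the active site of the mature enzymes and block it. In the kidney, these enzymes and inhibitors are known for the turnover of the tubular basement membrane and of the interstitial matrix, and infiltrating macrophages are a major source of several of them. The values below are of mRNA only and say nothing of proenzyme cleavage or enzyme activity.

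The values are FPKM, in which fragments are divided by gene length and by the sample's total, so levels may be compared between genes. Differences are given on the scale log2(FPKM + 1), which understates changes of low genes. All genes that averaged 1 FPKM or more were tested with limma, with p-values adjusted by Benjamini-Hochberg. A gene counts as called here where the adjusted p was below 0.05 and the difference reached 2-fold. The read depth is unknown, and the FPKM of a sample summed to between 380731 and 449186. Samples of a group were not uniform. Over 10751 genes, NC-5 and NC-6 correlated with NC-1 to NC-4 at 0.938 to 0.962, and COM-4 to COM-6 correlated with COM-1 to COM-3 at 0.888 to 0.951, whereas the COM+Met samples correlated with each other at 0.989 to 0.995. Where a call among the 10 genes ended or arose without such samples, the value without them is given beside it. Such samples were set apart by their values in these same data, so the refits without them are descriptions and not independent tests. Of 10 macrophage markers, Lyz2 was the highest in every group, Csf1r ran from 136 to 464 FPKM over the 18 samples, and Cd163 did not exceed 0.553 FPKM. Of the 9 macrophage markers tested between COM and NC, 3 were called, all higher, namely Adgre1 (5.16-fold), Cd14 (6.19-fold) and Fcgr1 (10.4-fold). The same 3 were called higher in COM+Met against NC, and C1qa alone was called, as higher, in COM+Met against COM. The part of these marker changes in the results below was not tested. Of the 12 stromal markers 9 were tested between COM and NC, with 1 called higher and 7 called lower, and their summed level was 35.2 to 113 FPKM in NC, 8.10 to 58.2 in COM and 5.33 to 11.5 in COM+Met. Of the 13 TEC markers only Cdh1 was high enough to be tested, and the list summed to 10.9 to 18.2 FPKM in NC and to 0.468 to 1.37 in COM. That sum was mostly Cdh1, at 9.45 to 17.8 FPKM in NC. Epcam, the next by mean in NC, did not exceed 1.77 FPKM, and Umod, Havcr1 and Krt18 were at 0 in all samples. In these bulk samples, fewer cells of a type and less RNA per cell cannot be told apart.

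Mmp13, Mmp12 and Mmp8 lie in the same direction within a cluster of metalloproteinase genes on chromosome 9. The sequences around their starts are shown because these 3 were the expressed genes of that cluster. All 3 had a negative difference between COM+Met and COM, as had Mmp9, Mmp19 and Timp1 on other chromosomes. The sequences are those of RefSeq on GRCm38.p6, from 250 bases before to 50 bases after the start, written 5′ to 3′ on the plus strand. Capitals mark matches on either strand to the AP-1 motif TGANTCA, the ETS motif AGGAAGT, the TATA motif TATAAA and the GC box GGGCGG. Mmp12 has a pair of starts in RefSeq, and the downstream start is shown.
Mmp13, chr9:7272264-7272563, plus strand: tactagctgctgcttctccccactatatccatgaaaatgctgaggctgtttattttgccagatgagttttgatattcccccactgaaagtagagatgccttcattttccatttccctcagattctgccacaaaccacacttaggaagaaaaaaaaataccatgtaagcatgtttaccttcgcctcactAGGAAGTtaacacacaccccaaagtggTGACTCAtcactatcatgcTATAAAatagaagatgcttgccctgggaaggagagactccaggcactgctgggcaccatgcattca
Mmp12, chr9:7347124-7347423, plus strand: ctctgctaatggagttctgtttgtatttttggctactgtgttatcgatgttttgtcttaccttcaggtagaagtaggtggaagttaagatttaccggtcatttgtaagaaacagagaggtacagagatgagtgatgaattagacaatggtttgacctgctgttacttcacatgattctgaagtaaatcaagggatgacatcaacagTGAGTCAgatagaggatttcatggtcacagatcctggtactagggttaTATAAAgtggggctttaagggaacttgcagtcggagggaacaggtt
Mmp8, chr9:7558179-7558478, plus strand: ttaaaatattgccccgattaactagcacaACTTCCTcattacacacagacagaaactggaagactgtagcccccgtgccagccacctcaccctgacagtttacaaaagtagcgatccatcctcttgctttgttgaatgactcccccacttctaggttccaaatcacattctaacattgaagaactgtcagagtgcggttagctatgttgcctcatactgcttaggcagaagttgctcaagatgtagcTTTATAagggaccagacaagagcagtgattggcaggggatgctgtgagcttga
The AP-1 letters lie 35 bases before the Mmp13 start and 44 bases before the downstream Mmp12 start, and 7.81% of the 32851 mouse promoters of this length hold them. The TATA letters are in all 3 sequences shown and in 13.6% of promoters, but not at the same place. They begin 16 bases before the start in Mmp13, 4 bases after it in Mmp12, and 3 bases before it on the minus strand in Mmp8. The promoter of the upstream Mmp12 start holds neither the AP-1 nor the TATA letters. The ETS letters are in those of Mmp13 and Mmp8, in that of the upstream Mmp12 start and in that of Timp1, against 9.35% of promoters. The GC box is in the promoters of Mmp14, Timp1, Timp2 and Timp3 and in none of the 4 promoters of Mmp13, Mmp12 and Mmp8, against 35.7% of promoters. Promoters were matched for 7 of the 10 genes, and Mmp2, Mmp9 and Mmp19 were not matched. None of these motifs overlapped another in the sequences shown.

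In NC, Mmp12, the macrophage elastase, was the highest of the 10 genes with a mean of 945 ± 511 FPKM (SD, n = 6), which ranked it 34 among all 25926 genes by the mean of that group. Mmp8 followed with 336 ± 184 FPKM, Mmp14 with 130 ± 94.0 FPKM and Mmp19 with 59.5 ± 14.2 FPKM. The other 6 genes had means from 5.14 FPKM (Mmp9) to 27.8 FPKM (Timp2). Only the step from Mmp19 to Timp2 separated neighbours in this order completely, since all other neighbours overlapped in their ranges. In COM the order was led by Mmp12, Mmp14 and Mmp8, and Mmp2 had moved from rank 8 to rank 4. In COM+Met the order of the first 4 was the same, with Mmp12 at 503 ± 89.6 FPKM and Mmp14 at 292 ± 24.0 FPKM not overlapping, and Timp3 was last in COM and in COM+Met. Mmp12 alone made up 61.9% to 65.0% of the summed FPKM of the 7 metalloproteinases in NC, 56.4% to 70.0% in COM and 46.5% to 59.2% in COM+Met. The 7 metalloproteinases together summed to 451 to 2117 FPKM in NC, 1121 to 1846 in COM and 782 to 1045 in COM+Met, and the 3 inhibitors to 24.6 to 62.4, 12.9 to 27.7 and 15.5 to 17.4.

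**Figure D1:**
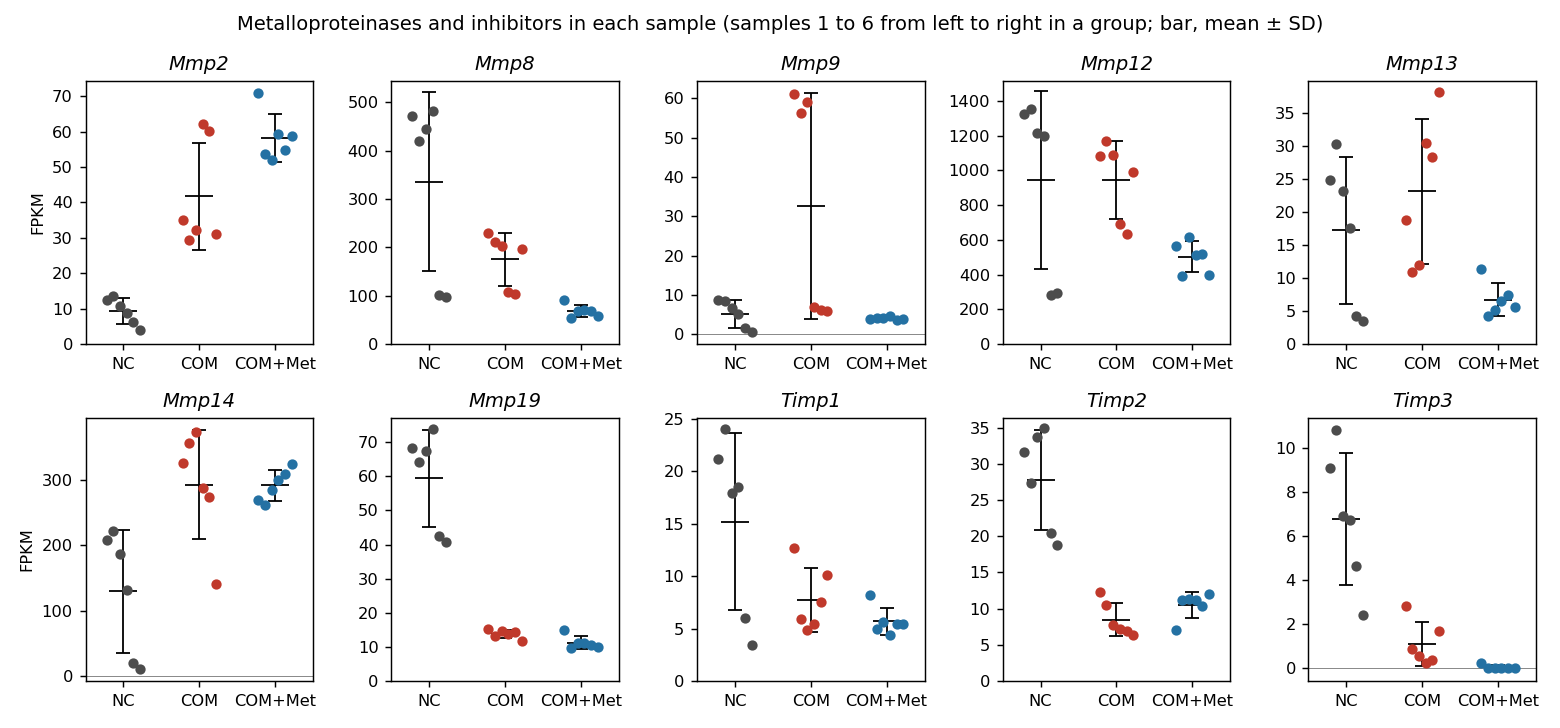
Each panel plots the FPKM of a gene (vertical axis, linear) in the NC, COM and COM+Met samples, with a point for each sample and a bar for the mean ± SD of 6. Mmp2 and Mmp14 sat higher in both COM groups, Mmp19, Timp2 and Timp3 lower, and Mmp9 split the COM group into 3 samples at 56.3 to 61.1 FPKM and 3 at 5.80 to 7.01.

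COM was compared with NC to ask how COM-treated TECs changed these genes in the macrophages above them. Mmp2, Mmp9 and Mmp14 rose, and Mmp19, Timp2 and Timp3 fell, so that 6 of the 10 genes were called, 3 in each direction. Among the 10900 genes tested 17.7% were called, 5.99% as higher and 11.7% as lower. The groups did not overlap for 3 of the 10 genes (Mmp2, Mmp19 and Timp2), against 38.2% of all genes tested. The median change of all genes was -0.27, which moved to about 0 with median-of-ratios size factors, and the called genes then split into 852 higher and 826 lower in place of 653 and 1273. The median change of the 10 genes was -0.23, and the direction of each was the same with size factors.

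Mmp2, a gelatinase that also cuts basement membrane collagen, was at 12.6, 13.5, 10.8, 8.90, 6.25 and 3.97 FPKM in the 6 NC samples, given in the order of their numbers. In the COM samples it was at 35.0, 29.5, 32.2, 62.3, 60.1 and 31.1 FPKM. The lowest COM sample was thus above the highest NC sample. The mean rose 4.47-fold, by 2.07 on the log2 scale (SE 0.28, adjusted p = 7.09e-05 from limma), and by 2.34 relative to the median of all genes. In COM+Met, Mmp2 was at 70.9, 53.7, 51.9, 59.3, 54.9 and 58.8 FPKM, all above COM-1, COM-2, COM-3 and COM-6, and above COM-4 only in COM+Met-1. The difference of COM+Met from COM was 0.53 (95% interval 0.12 to 0.95, adjusted p = 0.0846 from limma) and was not called. Without COM-4 to COM-6 it was 0.83, under 2-fold (adjusted p = 1.13e-05 from limma). Without COM-1 to COM-3 it was 0.24 (adjusted p = 0.388 from limma). Against NC, Mmp2 was higher in COM+Met by 2.60 (adjusted p = 2.9e-07 from limma). It was called between COM and NC, and between COM+Met and NC, under all alternatives tried.

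Mmp14, the membrane-type enzyme that opens proMmp2 at the cell surface, was at 208, 222, 187, 132, 19.7 and 11.2 FPKM in the NC samples. In the COM samples it was at 326, 356, 374, 287, 275 and 141 FPKM. NC-5 and NC-6 were the low samples, and COM-6 lay within the range of NC-1 to NC-4. The mean rose 2.25-fold, by 1.78 on the log2 scale (SE 0.70, adjusted p = 0.0458 from limma). Without NC-5 and NC-6 the difference was 0.60 and was not called (adjusted p = 0.0891 from limma), and leaving out NC-4, NC-5, NC-6 or any of COM-1 to COM-5 alone also ended the call (adjusted p = 0.052 to 0.101 from limma, differences of 1.24 to 1.92). It was also not called without COM-1 to COM-3 (1.46, adjusted p = 0.21 from limma) or without COM-4 to COM-6 (2.11, adjusted p = 0.0918 from limma). With no filter beyond a mean above 0 the call was lost too (adjusted p = 0.0771 from limma). The COM+Met samples were at 269, 262, 285, 301, 310 and 324 FPKM, and their difference from COM was 0.05 (95% interval -0.38 to 0.49, adjusted p = 0.889 from limma). They lay above every NC sample, with a difference from NC of 1.84 (adjusted p = 0.0261 from limma). That call ended without NC-5 and NC-6, where the difference of 0.66 was under 2-fold (adjusted p = 0.000298 from limma), without NC-5 alone (1.44, adjusted p = 0.055 from limma) and with arrayWeights (0.79, under 2-fold, adjusted p = 0.0211 from limma).

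Mmp9, also a gelatinase, was at 8.64, 8.51, 6.71, 5.05, 1.46 and 0.498 FPKM in NC. In COM-1, COM-2 and COM-3 it was at 61.1, 56.3 and 59.2 FPKM, and in the last 3 COM samples at 7.01, 6.22 and 5.80 FPKM. The first 3 COM samples were far above every NC sample, and the last 3 lay within the range of NC. Over all 6 samples Mmp9 was called higher in COM, by 2.06 on the log2 scale (SE 0.72, adjusted p = 0.0288 from limma), while the two-sided exact permutation test gave p = 0.0584. Without COM-1 to COM-3 the difference was 0.55 and was not called (adjusted p = 0.424 from limma). Leaving out NC-5, NC-6, COM-1, COM-2 or COM-3 alone also ended the call (adjusted p = 0.06 to 0.0646 from limma), as did leaving out NC-5 and NC-6 together (1.37, adjusted p = 0.155 from limma). With no filter beyond a mean above 0 the call was lost too (adjusted p = 0.0515 from limma). Neutrophil markers also differed between these COM samples, but not all in the same direction. The summed level of 16 neutrophil markers other than Lcn2 was 323 to 344 FPKM in COM-1 to COM-3 and 49.3 to 89.1 in COM-4 to COM-6, but 421 to 618 in NC, where Mmp9 was low. By mean, S100a8 led that sum, at 28.4 to 301 FPKM in COM and 189 to 324 in NC, where S100a9 was at 114 to 259. The full list of 17, which Lcn2 led in COM, summed to 976 to 1065 FPKM in COM-1 to COM-3 and to 1583 to 1758 in COM-4 to COM-6. Mpo, Elane, Ctsg and Retnlg of that list were listed at 0 in all 12 COM and COM+Met samples. The part of such RNA in the level of Mmp9 was not tested.

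Mmp19, a secreted enzyme that cuts basement membrane components, was at 68.3, 64.2, 67.3, 74.0, 42.4 and 40.8 FPKM in NC. The COM samples were at 15.3, 13.1, 14.7, 13.8, 14.3 and 11.8 FPKM. All COM samples were below all NC samples, and the COM group was tight, with a coefficient of variation of 9.09%. The mean fell 4.31-fold, a difference of -1.997 on the log2 scale (SE 0.16, adjusted p = 7.07e-07 from limma). In COM+Met it was at 14.9, 9.56, 11.04, 11.1, 10.4 and 9.97 FPKM, and the difference from COM of -0.29 was not called (95% interval -0.52 to -0.068, adjusted p = 0.0809 from limma). The difference from NC was -2.29 (adjusted p = 3.12e-08 from limma). Mmp19 was called lower against NC in both COM groups under all alternatives tried.

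Mmp12 had the same mean in NC and COM, 945 ± 511 and 943 ± 225 FPKM, but not the same spread. NC-1 to NC-4 were at 1199 to 1353 FPKM and NC-5 and NC-6 at 286 and 293 FPKM. The COM samples were at 1086, 1169, 1089, 694, 632 and 989 FPKM, all between those 2 sets. The difference of 0.24 was not called (95% interval -0.68 to 1.17, adjusted p = 0.646 from limma), and it turned to -0.47 without NC-5 and NC-6 (adjusted p = 0.0758 from limma). Mmp8, neutrophil collagenase, showed a similar split, with 420 to 482 FPKM in NC-1 to NC-4 and 102 and 97.8 FPKM in NC-5 and NC-6, against 229, 211, 203, 108, 105 and 197 FPKM in COM. Its difference of -0.71 was not called over all samples (adjusted p = 0.2 from limma), whereas without NC-5 and NC-6 it was -1.43 and called (adjusted p = 0.000878 from limma). The 16 neutrophil markers other than Lcn2 summed to 445 and 470 FPKM in NC-5 and NC-6, within the range of the other NC samples. S100a8 and S100a9 led that sum, and the part of neutrophil RNA in the level of Mmp8 was not tested. Mmp13, a collagenase with a broad range of substrates, was at 17.6 to 30.2 FPKM in NC-1 to NC-4, 4.30 and 3.49 FPKM in NC-5 and NC-6, and 18.8, 10.999, 11.99, 30.5, 28.4 and 38.1 FPKM in COM. Here COM-4 to COM-6 were the high samples, unlike for Mmp9. The difference of 0.61 was not called (95% interval -0.50 to 1.73, adjusted p = 0.326 from limma) and was -0.16 without NC-5 and NC-6.

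Of the inhibitors, Timp2, which blocks Mmp14 and also bridges it to proMmp2, was at 31.7, 27.4, 33.7, 34.9, 20.4 and 18.8 FPKM in NC. In COM it was at 12.2, 10.4, 7.75, 7.17, 6.94 and 6.41 FPKM. No COM sample reached the lowest NC sample. The mean fell 3.28-fold, a difference of -1.60 on the log2 scale (SE 0.19, adjusted p = 2.3e-05 from limma). In COM+Met, Timp2 was at 7.01 FPKM in the first sample and at 10.3 to 11.97 FPKM in the other 5. The difference from COM was 0.30 (95% interval -0.052 to 0.64, adjusted p = 0.249 from limma), and that from NC was -1.30 (adjusted p = 1.11e-05 from limma).

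Timp3, the inhibitor that binds to the extracellular matrix and also blocks ADAM proteases, was at 9.12, 10.9, 6.92, 6.75, 4.63 and 2.43 FPKM in NC. In COM it was at 2.84, 0.865, 0.535, 0.227, 0.367 and 1.70 FPKM. Only COM-1 was above NC-6. Timp3 fell by 1.91 on the log2 scale (SE 0.33, adjusted p = 0.000428 from limma). With a pseudocount of 5 the difference was -0.93, under 2-fold (adjusted p = 0.000516 from limma). In COM+Met it was listed at 0 in 4 samples and was at 0.207 FPKM in COM+Met-1 and 0.0168 in COM+Met-3, so that all 6 were below the lowest COM sample. Its mean over COM and COM+Met was below 1 FPKM and it was not in the limma fit of these groups, while the two-sided exact permutation test gave p = 0.00216, the smallest that 924 splits allow. Against NC the difference was -2.80 (adjusted p = 2.74e-07 from limma). Most stromal markers, several of which are matrix genes, were lower in COM than in NC, as was Timp3, but not all. The mean of Pdgfrb rose from 1.06 FPKM in NC to 4.81 in COM. That of Postn fell from 3.95 FPKM in NC to 1.23 in COM, and was 1.17 in COM+Met. The sum of the stromal markers was lowest in COM-4 among the COM samples, at 8.10 FPKM, and highest in COM-1, at 58.2 FPKM, where Timp3 was also lowest and highest. The part of stromal RNA in the level of Timp3 was not tested.

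Timp1, the inducible inhibitor that binds proMmp9, was at 21.1, 24.1, 17.97, 18.6, 6.04 and 3.42 FPKM in NC and at 12.7, 5.90, 4.85, 5.46, 7.57 and 10.1 FPKM in COM. NC-5 and NC-6 lay within or below the COM range. The difference of -0.71 was not called (95% interval -1.60 to 0.19, adjusted p = 0.165 from limma), but it was -1.35 and called without NC-5 and NC-6 (adjusted p = 0.000973 from limma). In COM+Met the 6 samples were at 8.24, 5.00, 5.58, 4.41, 5.44 and 5.46 FPKM, with a difference from COM of -0.34 (95% interval -0.78 to 0.10, adjusted p = 0.297 from limma). The difference of COM+Met from NC was -1.05 and called (adjusted p = 0.0263 from limma). That call ended without any of NC-1 to NC-4 or COM+Met-4 alone, where the difference ran from -0.99 to -0.87 (adjusted p = 0.0515 to 0.0593 from limma), and with size factors (-0.77, adjusted p = 0.0876 from limma). With a pseudocount of 5 the difference was -0.79, under 2-fold (adjusted p = 0.0205 from limma).

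COM+Met was compared with COM to ask what Met changed in macrophages above COM-treated TECs. Mmp8, Mmp9 and Mmp13 were called lower, and none of the genes was called higher. Mmp2 (0.53), Timp2 (0.30) and Mmp14 (0.05) had positive differences that were not called. Thus 3 of the 9 genes tested were called, all lower, where 2.22% of 10364 genes were called, 0.608% as higher and 1.61% as lower. The groups did not overlap for 3 of the 9 genes tested (Mmp8, Mmp9 and Mmp12), against 11.2% of all genes tested, nor for Timp3, which was below the filter. The median change was -0.34 for the 9 genes and 0.0033 for all genes.

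**Figure D2:**
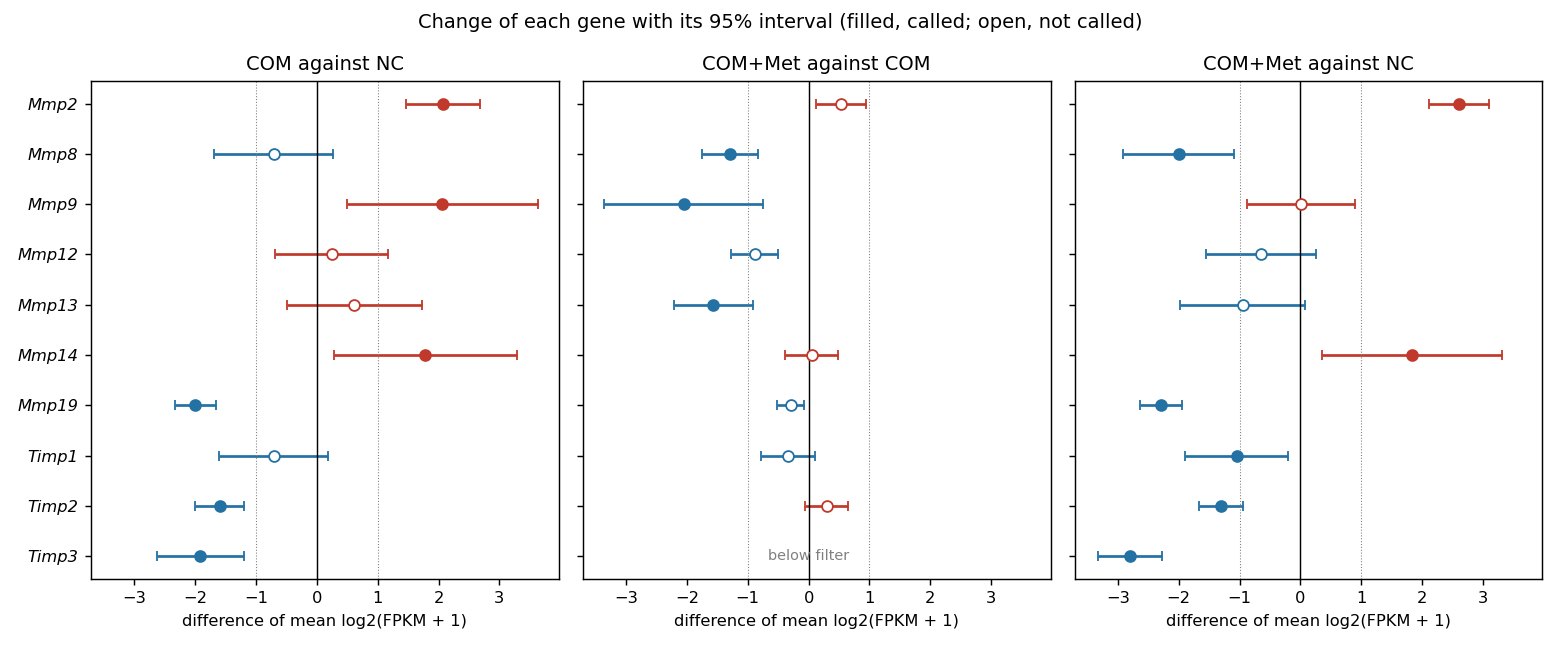
The difference of mean log2(FPKM + 1) is plotted for each gene (horizontal axis, log2 scale) in the 3 comparisons, with bars for the 95% interval, filled points for called genes and open points for genes not called. Filled points to the right are Mmp2, Mmp9 and Mmp14 for COM against NC, and for COM+Met against COM they are all to the left (Mmp8, Mmp9 and Mmp13), while Timp3 was below the filter there.

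Mmp8 was at 91.3, 54.5, 69.3, 70.2, 69.1 and 57.8 FPKM in COM+Met-1 to COM+Met-6, below the lowest COM sample at 105 FPKM. Its mean fell 2.55-fold, a difference of -1.29 on the log2 scale (SE 0.21, adjusted p = 0.00228 from limma). Without COM-1 to COM-3 the difference was -0.94, under 2-fold (adjusted p = 0.0157 from limma). The sum of the 16 neutrophil markers was 34.6 to 56.9 FPKM in COM+Met, and its part in the lower level of Mmp8 was not tested. Against NC, Mmp8 differed by -2.0 in COM+Met (adjusted p = 0.000814 from limma), and the highest COM+Met sample at 91.3 FPKM was just below NC-6 at 97.8 FPKM.

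Mmp13 was at 11.3, 4.22, 5.24, 6.48, 7.40 and 5.64 FPKM in COM+Met. Only COM+Met-1 reached the range of COM, where the lowest sample was at 10.999 FPKM. The mean fell 3.44-fold, a difference of -1.56 on the log2 scale (SE 0.30, adjusted p = 0.00544 from limma). Without COM-4 to COM-6, the samples with the highest Mmp13, the difference was -0.97 (adjusted p = 0.00449 from limma). The difference of COM+Met from NC was -0.95 and not called (adjusted p = 0.0867 from limma), and was -1.73 and called without NC-5 and NC-6 (adjusted p = 6.63e-06 from limma).

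Mmp12 was at 566, 394, 619, 516, 521 and 400 FPKM in COM+Met, with the highest value just below that of COM-5 at 632 FPKM. The mean was 1.88-fold lower than in COM and the difference was -0.89 (95% interval -1.28 to -0.50, adjusted p = 0.00695 from limma), so the gene passed on p but not on size. It was -1.17 and called without COM-4 to COM-6 (adjusted p = 1.67e-05 from limma). Against NC the difference was -0.65 and not called (adjusted p = 0.173 from limma), and was -1.36 and called without NC-5 and NC-6 (adjusted p = 3.29e-07 from limma).

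Mmp9 was at 3.62 to 4.66 FPKM in all 6 COM+Met samples, with a coefficient of variation of 8.52% against 88.4% in COM. All were below the lowest COM sample. The mean fell 8.06-fold, a difference of -2.06 on the log2 scale (SE 0.60, adjusted p = 0.0399 from limma). Against COM-4 to COM-6 alone the difference was -0.54, under 2-fold (adjusted p = 0.00283 from limma). The call also ended without any single sample of COM-1 to COM-3 or of COM+Met (adjusted p = 0.0713 to 0.0848 from limma, differences of -2.09 to -1.74). With a pseudocount of 5 (-1.57, adjusted p = 0.0522 from limma) or with no filter beyond a mean above 0 (adjusted p = 0.0709 from limma) it was lost as well. Against NC the difference was 0.01 (95% interval -0.89 to 0.90, adjusted p = 0.986 from limma), and without NC-5 and NC-6 it was -0.68 (adjusted p = 0.000158 from limma), under 2-fold.

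**Figure D3:**
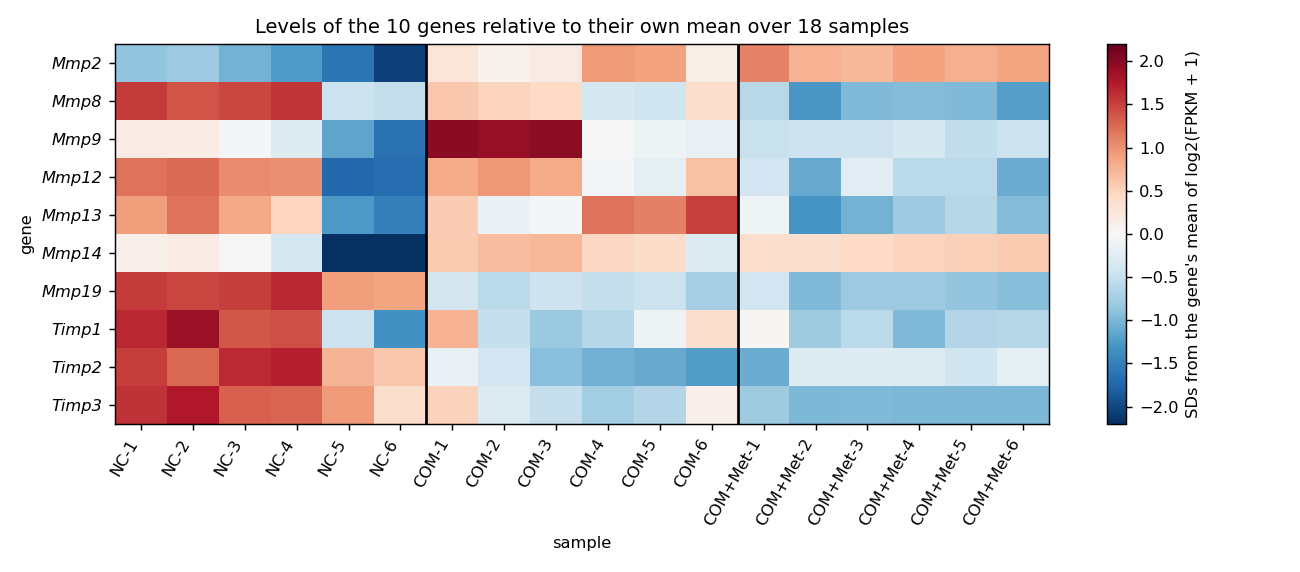
Colours give the level of each gene (rows) in each of the 18 samples (columns) as SDs from the gene's own mean of log2(FPKM + 1), with lines between NC, COM and COM+Met. NC-5 and NC-6 are low for Mmp12, Mmp13 and Mmp14, COM-1 to COM-3 are high for Mmp9, and COM-4 to COM-6 are high for Mmp13.

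Between COM+Met and NC, which share their samples with the other comparisons, 7 of the 10 genes were called. Mmp2 and Mmp14 were higher, Mmp14 not once NC-5, alone or with NC-6, was left out, and Mmp8, Mmp19, Timp1, Timp2 and Timp3 lower. Over 10786 genes 19.3% were called, 5.66% as higher and 13.6% as lower, and groups did not overlap for 57.6% of them, against 6 of the 10 genes. The median change of all genes was -0.26, and with size factors the called genes split into 832 higher and 983 lower in place of 611 and 1467. With size factors 6 of the 10 genes were called.

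The ratio of an enzyme to an inhibitor within a sample does not depend on how samples were scaled. Mmp2 over Timp2 was 0.212 to 0.493 in NC, 2.83 to 8.69 in COM and 4.56 to 10.1 in COM+Met. Mmp14 over Timp2 was 0.599 to 8.11, 21.98 to 48.3 and 23.3 to 38.4, respectively. For both ratios, each sample with COM was above each NC sample. For Mmp2 over Timp2 this follows from the single genes, since neither overlapped between NC and the samples with COM. The same holds for Mmp14 over Timp2 in COM+Met, but not in COM, where Mmp14 itself overlapped with NC. Mmp9 over Timp1 was 0.145 to 0.408 in NC, 4.83 to 12.2 in COM-1 to COM-3, 0.573 to 1.28 in COM-4 to COM-6 and 0.469 to 1.06 in COM+Met. This ratio was higher than in NC in all 12 samples with COM, also in those where Mmp9 itself lay within the NC range.

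**Figure D4:**
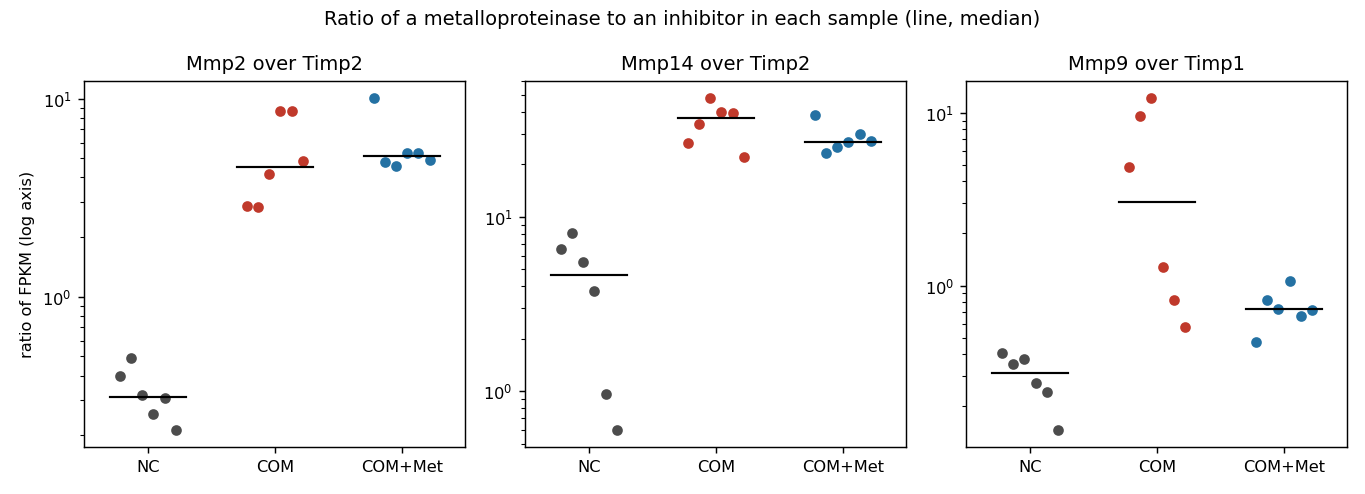
The ratio of FPKM of a metalloproteinase to that of an inhibitor is plotted for each sample on a log axis, with a line for the median of 6. Mmp2 over Timp2 had a median of 0.313 in NC, 4.50 in COM and 5.11 in COM+Met, and Mmp9 over Timp1 separated COM-1 to COM-3 from all other samples.

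On GRCm38 (GENCODE M21), 10 metalloproteinase genes lie within 427 kb of chromosome 9, and all but Mmp1b point the same way. Mmp13 (chr9:7272514-7283331), Mmp12 (chr9:7344381-7369499) and Mmp8 (chr9:7558456-7568485) were expressed. The other 7, Mmp1b, Mmp3, Mmp1a, Mmp10, Mmp27, Mmp20 and Mmp7, did not exceed 1.82 FPKM in any sample. The expressed genes were thus not adjacent as a group, since Mmp1b, Mmp3, Mmp1a and Mmp10 lie between Mmp12 and Mmp8. The remaining genes were spread over the genome, with Mmp2 on chromosome 8 (92827291 to 92853420), Mmp9 on 2 (164940780 to 164955850), Mmp14 on 14 (54431612 to 54445364), Mmp19 on 10 (128790910 to 128800824), Timp1 on X (20870166 to 20874735), Timp2 on 11 (118301069 to 118355740) and Timp3 on 10 (86300372 to 86349506). Some overlap other genes, and whether reads were counted by strand is not given in the sources used here. Timp1 lies within Syn1 and Timp3 within Syn3, both on the opposite strand, and Cep295nl lies within Timp2 on the same strand. The means of Syn1, Syn3 and Cep295nl were at most 0.455, 0.849 and 0.243 FPKM in any group. The end of Mmp12 overlaps Mmp1b by 1261 bases, and Mmp19 overlaps Tmem198b, at 3.49 to 4.80 FPKM, by 789 bases. The antisense gene Gm47093 overlaps Mmp19 over its whole length of 9915 bases on the opposite strand and was not analysed here.

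**Figure D5:**
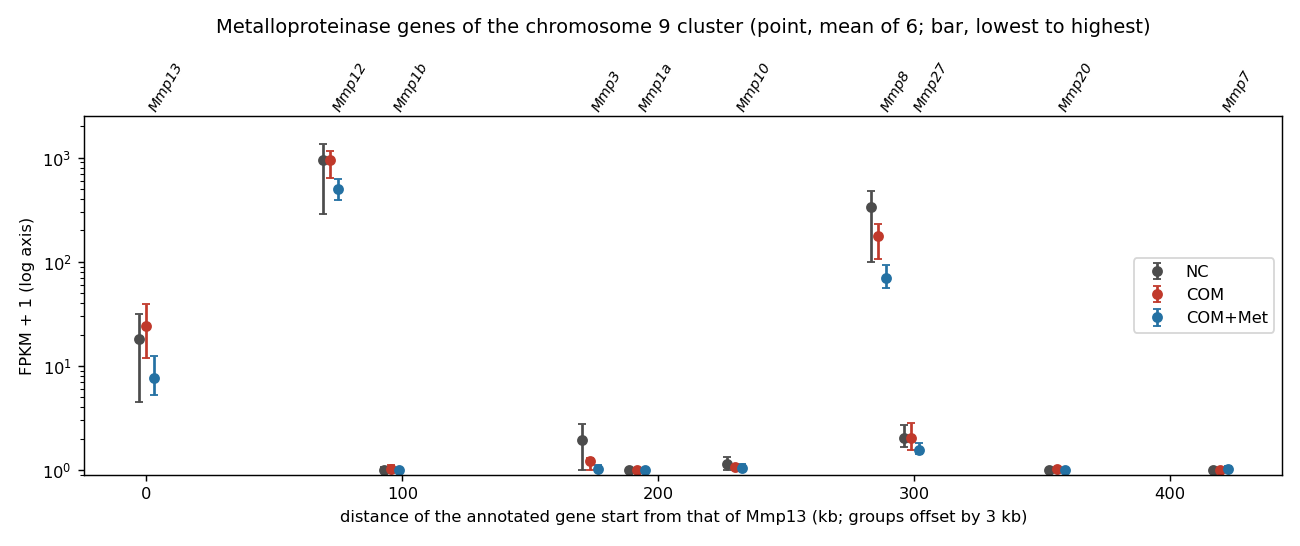
FPKM + 1 (log axis) of the 10 metalloproteinase genes of the chromosome 9 cluster is plotted against the distance of each gene's start from that of Mmp13 in kb, with a point for the mean of 6 samples and a bar from the lowest to the highest. Mmp13, Mmp12 and Mmp8 stand above the other 7, and their COM+Met means of 6.72, 503 and 68.7 FPKM were the lowest of the 3 groups.

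Of the 17 other metalloproteinase and inhibitor genes that were looked up, 15 stayed at or below 1.78 FPKM in every sample. Mmp27 was at 0.42 to 1.82 FPKM. Mmp25, a membrane-anchored enzyme of leukocytes, rose from 3.63 ± 1.42 FPKM in NC to 13.6 ± 7.28 FPKM in COM (1.56 on the log2 scale, adjusted p = 0.00201 from limma). It fell to 4.52 ± 1.31 FPKM in COM+Met (a difference from COM of -1.27, adjusted p = 0.0172 from limma), and its difference of 0.29 from NC was not called (adjusted p = 0.252 from limma). Without COM-1 to COM-3, Mmp25 was not called in either comparison with COM (0.86 against NC, adjusted p = 0.0193, and -0.57 for COM+Met, adjusted p = 0.052, both from limma).

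Of 20 genes that activate, take up or otherwise control metalloproteinases, 13 were tested in each comparison. In COM against NC, 3 were called as higher and 2 as lower, where 17.7% of all genes were called (5.99% higher and 11.7% lower), and the median was 0.059 against -0.27 for all genes. Lcn2 rose from 23.5 ± 11.7 to 1133 ± 509 FPKM and Plat, tissue plasminogen activator, from 0.286 ± 0.23 to 5.39 ± 1.07 FPKM. Thbs1, which mediates uptake of Mmp2, rose from 71.6 ± 40.0 to 213 ± 141 FPKM. Plaur, the urokinase receptor, fell from 232 ± 50.3 to 59.6 ± 20.3 FPKM, and Furin, which cleaves proMmp14, from 67.1 ± 6.00 to 28.1 ± 9.15 FPKM. In refits chosen after seeing the data, Thbs1 was not called without NC-5 and NC-6 (0.82, adjusted p = 0.191 from limma) or without COM-4 to COM-6 (0.57, adjusted p = 0.455 from limma), and Furin was under 2-fold without COM-4 to COM-6 (-0.93, adjusted p = 1.41e-05 from limma). With Met against COM, 1 was called higher and 4 lower (median -0.32), where 2.22% of all genes were called. Plau, urokinase, rose from 20.6 ± 7.64 to 42.1 ± 5.67 FPKM. Serpinb2, a plasminogen activator inhibitor, fell from 95.3 ± 45.2 to 23.4 ± 5.44 FPKM, and Plat fell to 1.77 ± 0.704 FPKM. Without COM-1 to COM-3, Plau was under 2-fold (0.68, adjusted p = 0.0157 from limma). Against NC, 3 were called higher in COM+Met and 4 lower (median -0.72), where 19.3% of all genes were called.

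The genes whose log2(FPKM + 1) followed each gene most closely over the 18 samples are given as a description, since all 18 points share the 3 groups. Mmp2 was followed by Cd40 (Pearson r = 0.992), Isg15 (0.986) and Ifitm3 (0.985), the last 2 interferon-induced genes. Timp3 was followed by Serpinf1 (0.987), Col5a2 (0.984) and Col3a1 (0.983), matrix and stromal genes. Timp1 was followed by Enpp2 (0.949), Dcn (0.926) and Ltbp2 (0.915), of which Dcn is a stromal marker. Mmp19 was followed by Il18rap (0.986), Timp2 by Mamdc2 (0.983), Mmp14 by Il21r (0.978), Mmp8 by Irf4 (0.975), Mmp12 by Flrt3 (0.966) and Mmp13 by Dusp6 (0.936). Between the 10 genes themselves, the closest pair was Mmp19 and Timp3 (0.930) and the most opposed was Mmp2 and Mmp19 (-0.861).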

How the data were processed

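The 18 libraries of BMDMs were grouped by their sample labels into NC, COM and COM+Met. The authors deposited FPKM values with a column for each sample, without pooling, and every sample column was used. Bowtie 0.12.2, mm8 and mm9 stand in the submitters' processing notes with no role given. Which quantifier, annotation and filters were used is not given in the sources used here. Low values did not step by whole reads, as only 0.515% to 1.03% of low genes had the same ratio between a pair of samples. Depth is therefore unknown, and intervals or floors based on read counts were not possible.

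Testing used log2(FPKM + 1) of the genes that averaged at least 1 FPKM in the 12 samples of a comparison, with limma 3.58.1 (lmFit, then eBayes with trend; R 4.3.3). P-values were adjusted by Benjamini-Hochberg over every gene tested, and the limits for a call were an adjusted p of 0.05 and a log2 difference of 1. The study's methods state t-tests and analysis of variance, which limma replaced here. For single values, a two-sided exact permutation test over all 924 arrangements was added. The fit was tested on simulated data. Promoters came from RefSeq (GRCm38.p6) and positions from GENCODE M21, where 27 of 27 Ensembl identifiers were found. Tables and figures were made in Python 3.11.15 (pandas 2.3.3; numpy 2.4.6; matplotlib 3.10.9).

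The genes and lists were chosen with earlier results of these data known. All 10 genes are named, with, from each list, the 3 largest rises and falls among called genes of a comparison, and the 3 genes most correlated with each of the 10. Some genes that this rule gives are not reported here. Alternatives included a pseudocount of 0.1 or 5, no filter or a minimum of 5 FPKM, rescaling to a common sum (TPM), median-of-ratios size factors, a replicate block, a single fit of all 18 samples, sample weights (arrayWeights), and the removal of single samples or of samples that stood apart.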

Additional observations from a re-analysis of the deposited data

Results flagged for a closer look

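In 5 of 30 gene and group combinations of 6 samples, a sample stood far from the others by Dixon's criterion, which chance meets in about 1 in 20 groups. Mmp14 was at 140.9 FPKM in COM-6, against 274.7 to 373.9 in the other COM samples. The other 4 were all in COM+Met-1. There Mmp19 was at 14.9 FPKM against 9.56 to 11.1 in the other COM+Met samples, Timp1 at 8.24 against 4.41 to 5.58, Timp2 at 7.01 against 10.3 to 11.97, and Timp3 at 0.207 against 0 to 0.0168. The summed stromal markers were also highest in COM+Met-1, at 11.5 FPKM against 5.33 to 6.48 in the others, and their part in these levels was not tested.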

How the results depend on the processing

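Of 664 refits of single genes under alternatives, 589 kept their direction and their side of the threshold, 46 lost the call, 13 gained it and 16 changed sign. The genes called between COM and NC numbered 980 with a pseudocount of 5 in place of 1926, and those between COM+Met and NC 1117 in place of 2078. Between COM+Met and COM, 230 genes became 370 and 90 with pseudocounts of 0.1 and 5, 719 with arrayWeights and 771 without COM-4 to COM-6, and the called genes of the 10 went from 3 to 1 without COM-1 to COM-3. The sign changed only for differences that were not called. For COM against NC, Mmp12 was at -0.099 with arrayWeights, -0.47 without NC-5 and NC-6, -0.037 without COM-1 to COM-3 and -0.046 to 0.40 with single samples left out, and Mmp13 at -0.63 with arrayWeights and -0.16 without NC-5 and NC-6. For COM+Met against COM, Mmp14 was at -0.25 with arrayWeights, -0.27 without COM-4 to COM-6 and -0.14 to 0.14 with single samples left out. For COM+Met against NC, Mmp9 was at -0.083 with a pseudocount of 5, -0.62 with arrayWeights, -0.68 without NC-5 and NC-6 and -0.34 to 0.20 with single samples left out. The causes were not tested.

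Samples with the same replicate number did not deviate together (correlations of -0.22 to 0.057 over genes). This cannot tell whether the numbers pair samples, since paired samples need not deviate together. With a replicate block 1920, 202 and 2080 genes were called for COM against NC, COM+Met against COM and COM+Met against NC, and Mmp9 was no longer called between COM+Met and COM (adjusted p = 0.0614 from limma). The block changed no other call among the 10 genes. Depth is unknown, so how precise low values such as those of Timp3 are cannot be told.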

Other observations

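Matrix proteins are the substrates of these enzymes. Of 25 matrix genes 17 were tested between COM and NC, with 1 called higher and 9 lower and a median of -1.15 against -0.27 for all genes, of which 17.7% were called, 11.7% as lower. Fn1, fibronectin, was at 56.4 ± 25.6 FPKM in NC and 11.7 ± 10.1 in COM, with a difference of -2.35 on the log2 scale (adjusted p = 0.00139 from limma). Lox, the collagen and elastin crosslinking enzyme, rose from 14.6 ± 5.20 to 48.3 ± 13.6 FPKM. In COM+Met against COM 4 of 10 were called, all lower, where 2.22% of all genes were called, and Col1a2 and Sparc were at 0.20 ± 0.467 and 0.211 ± 0.465 FPKM in COM+Met against 4.42 ± 4.71 and 4.59 ± 4.76 in COM. Without COM-1 to COM-3, Col1a2 was below the filter and Sparc was not called (-1.39, adjusted p = 0.0525 from limma). Several of these genes are also stromal markers, and the part of stromal RNA in these levels was not tested.

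Of 22 ADAM and ADAMTS genes and their partners, 8 were tested between COM and NC, and 2 were called, both lower, against 17.7% of all genes. Adam10 was at 55.6 ± 7.97 FPKM in NC and 27.3 ± 5.52 in COM, a difference of -1.01 that was -0.74 relative to the median of all genes, and Adamts10 at 12.4 ± 1.96 and 4.55 ± 2.21. Both were under 2-fold without COM-4 to COM-6 (-0.80 and -0.83), as was Adam10 without NC-5 and NC-6 (-0.90). Between COM+Met and COM only Adam8 was called among 7 tested, at 26.5 ± 1.56 against 57.8 ± 13.7 FPKM. Of 14 AP-1 and ETS factors 13 were tested between COM and NC and only Fos was called, at 19.4 ± 2.18 FPKM in NC and 4.59 ± 0.72 in COM. In COM+Met against COM, Fosl2 was lower, at 8.58 ± 1.70 against 21.4 ± 11.3 FPKM, and Batf higher, at 28.6 ± 3.46 against 13.9 ± 4.90 FPKM, and the other 10 of the 12 tested were not called. Without COM-1 to COM-3, none of Adam8, Fosl2 and Batf was called (differences of -0.998, -0.35 and 0.66). These refits without samples were chosen after seeing the data. In COM+Met against NC, 14 of 16 matrix genes, 2 of 7 ADAM and ADAMTS genes and 4 of 13 AP-1 and ETS factors were called, where 19.3% of all 10786 genes were called.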
